A study of Mus musculus with 4 samples.

Results

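Motile cilia beat by means of an axoneme, a bundle of microtubules with dynein motors, and the transcripts of 73 mouse genes of this machinery were followed in the brain cortex of mice given TCQA or water. The genes were chosen by symbol alone: those beginning with Cfap, Dnah, Dnai, Dnaaf, Rsph or Drc, together with a fixed set of coiled-coil, tektin, central apparatus, ependymal and regulator genes. They were 73 of the 19505 genes with a symbol on the array. Foxj1, Ccdc40, Ccdc103 and Ccdc114, which the same rule names, were not analysed here. Male SAMR1 mice, the normally ageing control line of the senescence-accelerated mouse strains, lived alone in their cages for 4 months, starting at 7 months of age. At 11 months they were given TCQA (tricaffeoylquinic acid, a plant polyphenol) orally for 1 month, at a daily dose of 5 mg/kg, or purified water as the control. Clariom S arrays measured 2 cortex samples from TCQA mice (TCQA 1 and TCQA 2) and 2 from water mice (water 1 and water 2). Whether a sample is a single mouse or a pool of mice is not stated. A p-value here therefore reflects only how far these samples vary among themselves, and that variation may be technical. In limma the variance of each gene was also drawn toward a value shared by all rows (the moderated variance).

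In the brain, motile cilia are carried in tufts by ependymal cells, the epithelium lining the ventricles, where their beat moves cerebrospinal fluid. Outer and inner dynein arms on the doublet microtubules produce the stroke, radial spokes and the central apparatus regulate it, and the nexin-dynein regulatory complex links neighbouring doublets. Foxj1, Mcidas and the RFX factors switch the genes on, and RFX proteins bind a palindromic DNA element called the X-box. Choroid plexus epithelium also carries cilia. Most neurons and astrocytes have instead a single primary cilium, which shares intraflagellar transport but lacks most of the axonemal motor parts.

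The sequences before the start sites of 5 of the genes that were lower in TCQA are printed, picked because they show the X-box letters by which RFX factors recognise cilia genes. They are the 250 bases before the start, 5′ to 3′ on the gene's strand, from RefSeq on GRCm38.p6, with each match to the X-box or its core letters GTTGCC on either strand in capitals. Hydin lies on the plus strand (chr8:110266727-110266976), Ccdc151 on the minus strand (chr9:22002635-22002884) and Tekt1 on the minus strand (chr11:72361883-72362132, the first listed of 2 start sites). Cfap161 lies on the minus strand (chr7:83794840-83795089) and Ccdc153 on the plus strand (chr9:44240427-44240676).
Hydin: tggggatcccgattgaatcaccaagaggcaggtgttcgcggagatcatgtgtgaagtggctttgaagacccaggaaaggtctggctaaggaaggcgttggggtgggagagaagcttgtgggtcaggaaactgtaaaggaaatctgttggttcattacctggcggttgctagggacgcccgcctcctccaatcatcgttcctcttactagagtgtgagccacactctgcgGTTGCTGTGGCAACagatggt
Ccdc151: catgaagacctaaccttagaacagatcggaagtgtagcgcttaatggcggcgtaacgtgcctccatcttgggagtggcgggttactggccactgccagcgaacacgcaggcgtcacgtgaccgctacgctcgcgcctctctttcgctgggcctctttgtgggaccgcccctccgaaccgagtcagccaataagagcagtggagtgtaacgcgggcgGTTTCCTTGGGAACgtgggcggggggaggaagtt
Tekt1: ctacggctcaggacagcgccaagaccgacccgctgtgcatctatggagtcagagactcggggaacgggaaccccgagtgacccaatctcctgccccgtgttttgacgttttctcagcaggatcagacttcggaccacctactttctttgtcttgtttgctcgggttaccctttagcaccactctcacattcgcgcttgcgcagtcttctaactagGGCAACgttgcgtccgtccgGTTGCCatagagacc
Cfap161: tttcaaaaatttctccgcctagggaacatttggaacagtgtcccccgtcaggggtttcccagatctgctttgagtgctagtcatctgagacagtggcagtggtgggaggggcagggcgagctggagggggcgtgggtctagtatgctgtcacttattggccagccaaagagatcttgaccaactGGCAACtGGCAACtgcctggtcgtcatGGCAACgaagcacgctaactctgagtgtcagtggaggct
Ccdc153: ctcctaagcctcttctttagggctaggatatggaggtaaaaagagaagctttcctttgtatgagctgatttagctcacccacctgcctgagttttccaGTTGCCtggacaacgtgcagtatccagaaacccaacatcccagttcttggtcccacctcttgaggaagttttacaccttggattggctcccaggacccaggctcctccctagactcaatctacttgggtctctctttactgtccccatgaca
Hydin and Ccdc151 each held 1 full X-box (GTNNCC, then any 2 letters, then NGNAAC), which began 21 and 34 bases before the start. The letters fit that pattern on the gene's own strand in Ccdc151 and on the opposite strand in Hydin, where they read GTTGCCACAGCAAC. Tekt1 held 2 copies of the core letters, of which the nearer began 15 bases before the start, Cfap161 held 3 and Ccdc153 held 1. Cfap126 and Cfap221, which were also lower in TCQA at an unadjusted p under 0.05, held neither the full X-box nor the core letters. For Cfap65 and Cfap53, lower by the same test, no such sequence was at hand.

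Such windows were at hand for 64 of the 73 genes and for 27025 genes in all, more than the 19505 genes with a symbol on the array. The motifs were picked after their matches were seen, and the shares below were not tested. The full X-box was present before 13 of the 64 axoneme genes (20.3%), against 2.07% of all genes. The core letters GTTGCC were present before 23 (35.9%), against 11.8% of all genes, and a full X-box contains them wherever its first or last 6 letters match them. The forkhead letters TGTTTAC were found before 3 of the 64 genes (4.69%), against 3.54% of all genes, and their first 6 letters TGTTTA before 10 (15.6%), against 13.5%. A match to letters does not show that a protein binds there. Axoneme genes with a full X-box had a median log2 change between TCQA and water of 0.08 and the other 51 had one of -0.05, and of the 7 genes with a window that were lower in TCQA at an unadjusted p under 0.05, 2 held it.

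Signals are log2 values, and a change is the TCQA mean minus the water mean. Most of the axoneme genes were dim. Their mean signals ran between 3.09 and 11.98 with a median of 5.62, against a median of 7.01 for all 19572 named rows of the array. The negative control probe sets had a median of 6.98 and a 95th percentile of 11.06. Of the 73 genes 21 (28.8%) lay above that median, against 50.2% of all rows, and 1 lay above the 95th percentile, against 16.5%. That gene was Rfx3, and the next brightest were the doublet junction protein gene Cfap20 and Cfap36. For genes below the negative control median the size of a fold is uncertain.

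After TCQA, 9 axoneme genes were lower and 1 was higher than after water at an unadjusted p under 0.05 in limma. Lower were the tektin gene Tekt1, the doublet and basal body genes Cfap126, Cfap53 and Cfap161, the central apparatus genes Cfap65, Cfap221 and Hydin, the dynein docking gene Ccdc151 and the ependymal gene Ccdc153, and higher was Cfap97. The 9 lower genes were 12.3% of the 73, where 3.89% of all rows were called lower, and the 1 higher gene was 1.37%, where 3.48% were called higher. All 9 lay below the negative control median by their mean over the arrays, as did 52 of the 73 genes. Of these 52 dim genes 17.3% were called lower and 0 higher, where of all such dim rows 6.23% were called lower and 2.83% higher. Of the 21 axoneme genes above that median 0 were called lower and 1 higher, where 1.58% of all such rows were called lower and 4.12% higher. With limma and Benjamini-Hochberg adjustment over all rows 0 of the 73 passed, as did 0 of 19572, and the smallest adjusted p among the axoneme genes was 0.642. An unadjusted p under 0.05 was reached by 1443 rows in all (7.37%). In bulk tissue, fewer cells of a type and less RNA per cell cannot be told apart.

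**Figure D1:**
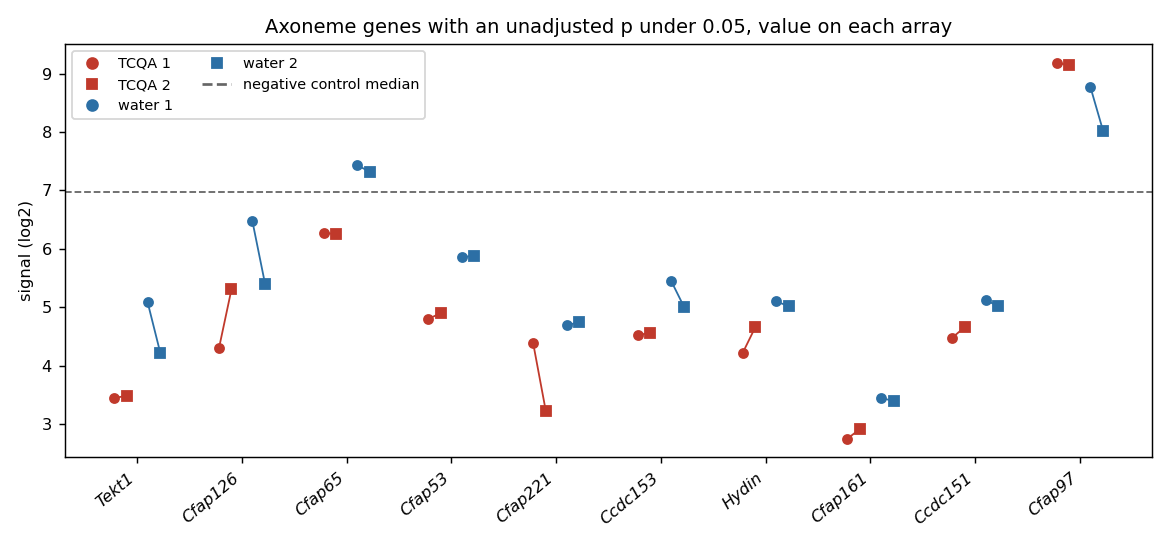
Signal (log2) on each of the 4 arrays for the 10 axoneme genes with an unadjusted p under 0.05, TCQA in red on the left and water in blue on the right of each gene, circles for replicate 1 and squares for replicate 2, joined by lines. The groups do not overlap for any of the 10 genes, which their choice by p favours. Of all rows 19.2% have both TCQA values below both water values and 19.9% have them above. Both TCQA values of Cfap65 (6.27 and 6.25) lie below the dashed negative control median while both water values (7.43 and 7.32) lie above it.

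Across the whole set the shift was small. Of the 73 genes 41 were lower and 32 higher in TCQA, with a median log2 change of -0.09, where the median of all rows was 0.0028. The middle 50 percent of the axoneme genes ran from -0.38 to 0.16, against -0.19 to 0.20 for all rows. Both TCQA arrays lay below both water arrays for 22 genes (30.1%), against 19.2% of all rows, and above both for 13 genes (17.8%), against 19.9%. The 21 brighter genes split into 10 lower and 11 higher with a median of 0.07, where brighter rows in general had a median of 0.05. The 52 dim genes split into 31 lower and 21 higher with a median of -0.11, where dim rows in general had -0.06. Standard errors of single changes had a median of 0.24 and reached 0.62.

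**Figure D2:**
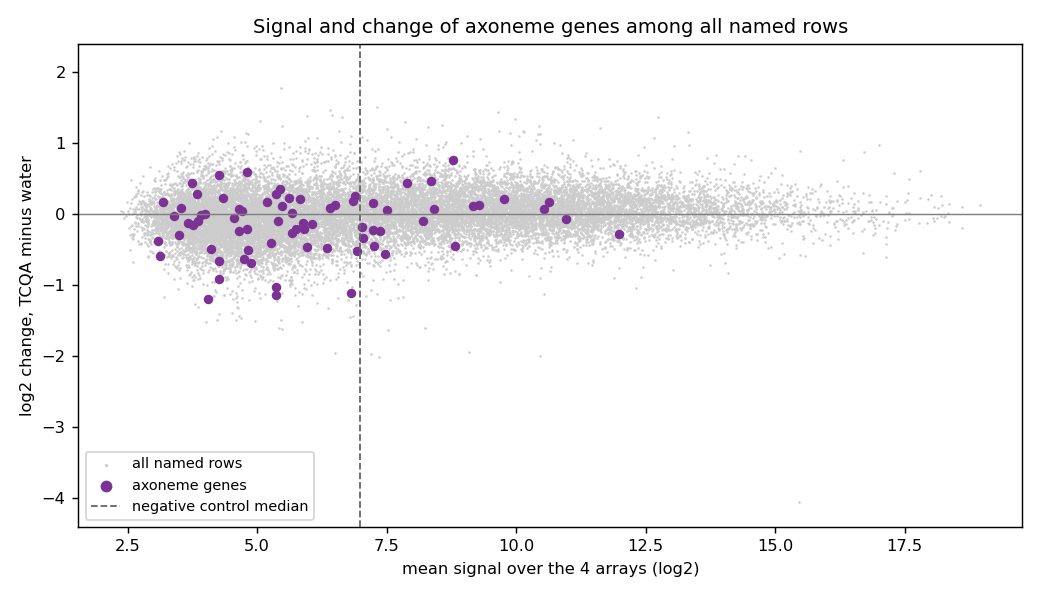
Mean signal over the 4 arrays (log2, horizontal) against the log2 change of TCQA minus water (vertical) for all 19572 named rows in grey and the 73 axoneme genes in purple, with the negative control median as a dashed line. The axoneme genes called lower lie left of the line, and Cfap97 is the called gene to its right.

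The study also asked for a change beyond 2-fold. With that added, 4 of the 73 axoneme genes were lower, all of them among the 52 dim ones, and 0 were higher. By the same criteria 0.419% of all rows, 0.698% of dim rows and 0.142% of the brighter rows were lower. Cfap65 (transcript cluster TC0100002596.mm.2, chromosome 1), whose counterpart in the alga Chlamydomonas sits on the central apparatus, had signals of 6.27 and 6.25 in TCQA 1 and TCQA 2, against 7.43 and 7.32 in water 1 and water 2. Both TCQA samples were lower by about the same amount, and the replicates of each group were close to each other. The log2 change was -1.11 (SE 0.19), or 2.16-fold lower, with an adjusted p of 0.642 by limma. Cfap53 (TC1800000789.mm.2, chromosome 18), a protein inside the doublet microtubules that is linked to left-right patterning, had 4.80 and 4.90 in the TCQA samples, against 5.85 and 5.88 in the water samples. Again the samples of a group were close and the groups did not overlap. Its log2 change was -1.02 (SE 0.19), 2.03-fold lower, with an adjusted p of 0.642 by limma.

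Tekt1 (TC1100003143.mm.2, chromosome 11), a filament protein within the doublets, had 3.44 and 3.48 in TCQA 1 and TCQA 2, against 5.08 and 4.22 in water 1 and water 2. The TCQA samples were alike, while water 1 stood well above water 2. The log2 change was -1.19 (SE 0.30), or 2.28-fold lower, with an adjusted p of 0.655 by limma. Without water 1 it was -0.76 and without water 2 it was -1.62. Cfap126 (TC0100001577.mm.2, chromosome 1), known as Flattop and needed in mice to position basal bodies, had 4.29 and 5.31 in the TCQA samples, against 6.47 and 5.41 in the water samples. TCQA 2 and water 2 nearly met, so the difference came from TCQA 1 and water 1. The log2 change was -1.14 (SE 0.45), 2.20-fold lower, with an adjusted p of 0.673 by limma, and it lost its unadjusted p under 0.05 without TCQA 1 (-0.63) or without water 1 (-0.61).

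When each array was left out in turn, Cfap65, Cfap53 and Tekt1 kept an unadjusted p under 0.05 in all 4 fits. Without the moderated variance Tekt1 lost that call (unadjusted p = 0.11), and with quantile normalisation Cfap53 stood at -0.94, short of 2-fold. In the fits with an array left out the 3 log2 changes ran from -1.17 to -1.06, from -1.07 to -0.97 and from -1.62 to -0.76. The lone sample left in a group is assumed in such fits to vary like the other group. The number of genes called lower was 5 (4 of them among the 9) when TCQA 1 was left out and 7 (6 of them) when TCQA 2 was. It was 5 (3 of them) without water 1 and 13 (5 of them) without water 2. Leaving out TCQA 1 gave 3 genes called higher, TCQA 2 gave 0, water 1 gave 2 and water 2 gave 3.

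The other central apparatus genes went in both directions. Hydin, a large protein of the central pair whose loss causes hydrocephalus in mice, had 4.22 and 4.66 in the TCQA samples, against 5.10 and 5.02 in the water samples. Its change of -0.62 (SE 0.22; adjusted p = 0.673, limma) kept its call when TCQA 2 was left out (-0.84) and lost it when TCQA 1 (-0.40), water 1 (-0.58) or water 2 (-0.66) was. Cfap221, known as Pcdp1 and a cause of ciliary dyskinesia in mice, had 4.38 and 3.23 in TCQA 1 and TCQA 2, against 4.69 and 4.75 in the water samples. TCQA 2 alone stood far below the others, and the change of -0.91 (SE 0.37; adjusted p = 0.673, limma) was -0.33 without it and -1.49 without TCQA 1, and the call was also lost without water 1 (-0.94) and without water 2 (-0.88). Higher in their group means were Cfap69 at 0.47, Spag16 at 0.44, Spag17 at 0.29, Spag6 at 0.07 and Cfap70 at 0.05, while Cfap74 stood at -0.24, and none of these 6 reached an unadjusted p under 0.05. Cfap69, the brightest of the 9 central apparatus genes, had 8.20 and 8.99 in TCQA 1 and TCQA 2, against 7.90 and 8.33 in the water samples, which overlap.

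The regulators Rfx2, Rfx3 and Mcidas did not reach an unadjusted p under 0.05 with the moderated variance of limma, and without it Rfx3 did. Rfx3, which acts on X-box promoters and is also expressed in neurons, had 11.90 and 11.79 in the TCQA samples, against 12.14 and 12.09 in the water samples. The groups did not overlap, with a log2 change of -0.27 (SE 0.19; adjusted p = 0.739, limma). Rfx2 differed by 0.12 (SE 0.20). Mcidas, the coactivator that starts multiciliation, differed by -0.15 (SE 0.22) at signals between 3.61 and 4.05.

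**Figure D3:**
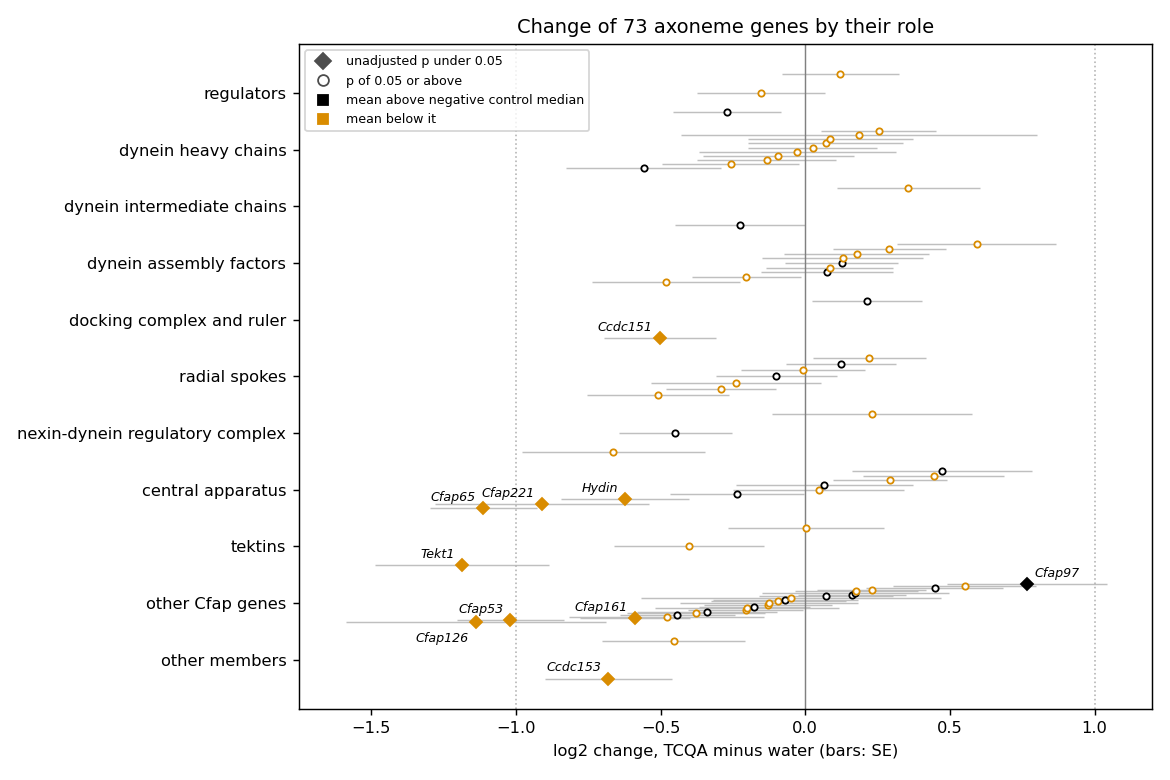
Log2 change of TCQA minus water for the 73 axoneme genes by role, with standard errors as bars; filled diamonds have an unadjusted p under 0.05, orange marks lie below the negative control median and dotted lines mark 2-fold. Dynein heavy chains and assembly factors lie on both sides of 0 without a called gene, and the called genes sit among the central apparatus, tektin, docking, Cfap and ependymal genes.

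Of the dynein motor genes none reached an unadjusted p under 0.05. The 10 heavy chains, the ATP-splitting motor subunits, split into 5 lower and 5 higher with a median log2 change of -0.0006. Dnah6, an inner arm chain and the brightest, had 7.40 and 6.97 in the TCQA samples, against 8.02 and 7.47 in the water samples. TCQA 1 and water 2 were nearly equal, and the change was -0.56 (SE 0.27; adjusted p = 0.687, limma). Dnah7a, another inner arm chain with close copies that its probes may also detect, differed by 0.25 (SE 0.20), and Dnah2 by 0.09 (SE 0.28). Dnah11, an outer arm chain, had 5.92 and 7.97 in TCQA 1 and TCQA 2, against 7.02 and 6.50 in the water samples. TCQA 2 was the highest array and TCQA 1 the lowest, so that its change of 0.19 (SE 0.62) was -0.84 without TCQA 2 and 1.21 without TCQA 1. In TCQA 2 the mean of 8 olfactory bulb markers was also high, at 7.68, with TCQA 1 at 5.95, water 1 at 6.26 and water 2 at 6.10. Cdhr1, Eomes, Th and Calb2 carried that mean, while Tbx21 and Lhx1 moved little. Pcdh8 had 7.98 in TCQA 1 and 7.99 in TCQA 2, and Gng13 was lower in TCQA 2 (6.71) than in TCQA 1 (7.30). The part of such tissue in the Dnah11 value was not tested. The outer arm chains Dnah5, Dnah8, Dnah9 and Dnah17 differed by -0.26, 0.03, 0.07 and -0.09, and the inner arm chains Dnah1 and Dnah10 by -0.13 and -0.03.

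The outer arm intermediate chains Dnaic1 and Dnaic2 differed by -0.23 (SE 0.22) and 0.36 (SE 0.25). Of the 9 genes for cytoplasmic dynein assembly 7 were higher and 2 lower in their group means, with a median of 0.13 and 0 at an unadjusted p under 0.05. The brightest, Cfap300, had 10.53 and 10.63 in the TCQA samples, against 10.74 and 10.27 in the water samples, which enclosed them. Cfap298, Dnaaf2 and Dnaaf5 differed by 0.13, 0.13 and 0.29. Dnaaf4 lay highest of the group at 0.59 (SE 0.27) and Dnaaf3 lowest at -0.48 (SE 0.26), both with mean signals below 5. Dnaaf6 and Dnaaf6b, which are near copies of each other, differed by 0.08 and 0.18.

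Where the dynein arms attach, 2 genes were measured. Ccdc151, needed to dock outer arms on the doublets, had 4.48 and 4.66 in the TCQA samples, against 5.12 and 5.02 in the water samples. Its change was -0.50 (SE 0.19; adjusted p = 0.673, limma), and it lost its unadjusted p under 0.05 without any 1 of the 4 arrays, at values from -0.59 to -0.41. Ccdc39, part of the molecular ruler that spaces arms and spokes, was much brighter, with 9.86 and 9.89 in the TCQA samples, against 9.58 and 9.74 in the water samples. The groups did not overlap, but the difference of 0.21 (SE 0.19) did not pass the test.

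Radial spoke genes split into 5 lower and 2 higher, with a median of -0.10 and 0 at an unadjusted p under 0.05. Rsph4a, a spoke head protein, had 6.86 and 6.48 in the TCQA samples, against 7.41 and 6.95 in the water samples. Both TCQA samples lay below both water samples, with a change of -0.51 (SE 0.25; adjusted p = 0.688, limma). The brightest spoke gene, Rsph3a, differed by 0.12 (SE 0.19) and its near copy Rsph3b by 0.22 (SE 0.19), and Rsph9, of the spoke head, by -0.10 (SE 0.21). Rsph1, Rsph6a and Rsph14 differed by -0.24, -0.29 and -0.0078.

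The nexin-dynein regulatory complex was represented by 3 genes. Drc1, its base subunit, had 7.16 and 6.92 in the TCQA samples, against 7.53 and 7.45 in the water samples. The groups did not overlap, and the change of -0.45 (SE 0.20; adjusted p = 0.683, limma) did not pass. Drc7 stood at -0.66 (SE 0.32), with water 1 at 5.05 far above 3.92, 3.93 and 4.13 in TCQA 1, TCQA 2 and water 2, and Drc3 stood at 0.23 (SE 0.34). The tektins Tekt4 and Tekt2 differed by -0.40 (SE 0.26) and 0.0024 (SE 0.27).

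The remaining Cfap genes, 23 in number, split into 15 lower and 8 higher with a median of -0.12. Cfap97, related to the Drosophila gene hemingway, was the 1 axoneme gene called higher, with 9.18 and 9.14 in the TCQA samples, against 8.77 and 8.02 in the water samples. Water 2 was the low array, and the change of 0.77 (SE 0.28; adjusted p = 0.673, limma) was 1.14 without water 1 and 0.39 without water 2, and lost its unadjusted p under 0.05 without water 2, without TCQA 1 (0.74) and without TCQA 2 (0.79). Cfap161, a protein inside the doublets, had 2.75 and 2.91 in the TCQA samples, against 3.44 and 3.40 in the water samples, among the lowest signals of the set. Its change was -0.59 (SE 0.19; adjusted p = 0.673, limma), and it lost its unadjusted p under 0.05 without TCQA 1 (-0.51), water 1 (-0.57) or water 2 (-0.61). Further proteins that line the inside of the doublets, encoded by Cfap20, Cfap45, Cfap52 and Cfap77, differed by -0.07, -0.12, -0.20 and -0.05. Cfap53 at -1.02 and Tekt1 at -1.19, described above, also lie inside the doublets.

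Besides Cfap97, the brighter Cfap genes of that group did not pass the test. Cfap20, at the doublet junction, had 10.71 and 11.14 in the TCQA samples, against 11.21 and 10.78 in the water samples, which overlap. Cfap36, a binding partner of the ciliary GTPase Arl3, had 10.30 and 11.16 in TCQA 1 and TCQA 2, against 10.35 and 10.76 in the water samples, a change of 0.17 (SE 0.32). Cfap44, which in Chlamydomonas tethers an inner arm motor to the doublet, had 8.62 and 8.57 in the TCQA samples, against 9.18 and 8.90 in the water samples. Those groups did not overlap, with a change of -0.44 (SE 0.20; adjusted p = 0.685, limma), and its partner Cfap43 differed by -0.34 (SE 0.24). Cfap20dc, Cfap58 and Cfap100 differed by 0.45, 0.55 and -0.48, and the other Cfap genes of this group, not named so far, lay between -0.38 and 0.23.

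Ccdc153 and Tmem212, both used as ependymal cell markers in mice, were lower in TCQA in their means. Ccdc153 had 4.52 and 4.56 in the TCQA samples, against 5.44 and 5.01 in the water samples, a change of -0.68 (SE 0.22; adjusted p = 0.673, limma). It lost its unadjusted p under 0.05 without TCQA 1 (-0.66), TCQA 2 (-0.70) or water 1 (-0.46). Tmem212 had 5.87 and 5.61 in the TCQA samples, against 6.46 and 5.93 in the water samples, a change of -0.46 (SE 0.25) that did not pass. In both genes water 1 was the highest array and the groups did not overlap.

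Other cilia genes were read in lists beside the axoneme set. Of 48 measured genes of 60 listed for further axonemal and motile cilia parts, 30 were lower and 18 higher in TCQA, with a median log2 change of -0.10. In that list 1 gene (2.08%) was lower and 0 were higher at an unadjusted p under 0.05. Of all rows 3.89% were called lower and 3.48% higher, and of dim rows 6.23% and 2.83%. The lower one was Morn5, with 3.02 and 3.07 in the TCQA samples, against 3.95 and 3.61 in the water samples, a change of -0.73 (SE 0.21; adjusted p = 0.664, limma). Of 14 multiciliation and deuterosome regulators 1 (7.14%) was lower and 2 (14.3%) were higher by the same test. Myb, a transcription factor that promotes multiciliation, had 4.52 and 4.52 in the TCQA samples, against 5.28 and 5.21 in the water samples, a change of -0.72 (SE 0.18; adjusted p = 0.655, limma). Rfx1 at 0.64 (SE 0.22) and Jazf1 at 0.61 (SE 0.24) were the 2 higher genes of that list.

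Genes of the primary cilium, which neurons and astrocytes share, were brighter, with all 28 measured genes of intraflagellar transport above the negative control median. Of these 28, which run the traffic that builds cilia, 20 were higher and 8 lower in TCQA, with a median of 0.10. Of all rows above the negative control median 41.4% were lower, with a median of 0.05, and 4.12% were called higher and 1.58% lower. By the unadjusted test 1 (3.57%) was higher, Ift122, with 8.22 and 8.45 in the TCQA samples, against 7.63 and 7.66 in the water samples, a change of 0.69 (SE 0.19; adjusted p = 0.664, limma). Of 33 genes of the BBSome, the transition zone and primary cilia 20 were higher and 13 lower with a median of 0.16, and 26 of the 33 lay above the negative control median. In this list 3 (9.09%) were called higher and 0 lower, where 3.48% of all rows were called higher and 3.89% lower. The 3 were Tmem67 at 0.59 (SE 0.19) and Gpr161 at 0.50 (SE 0.19), of the transition zone and of ciliary hedgehog signalling, and the ciliary trafficking adaptor Tulp3 at 0.61 (SE 0.24), each with an adjusted p of 0.673 by limma. Tulp3 had 7.11 and 6.86 in the TCQA samples, against 6.62 and 6.13 in the water samples, where the negative control median was 6.98. The difference between these lists and the axoneme genes was not tested.

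Ependymal genes outside the axoneme went in both directions. Of 12 measured, 7 were lower and 5 higher, with a median of -0.07 and single changes from -1.62 to 0.85. Aqp4, S100b and Gjb6 of that list are astrocyte markers too. Above the negative control median lay 6 of the 12, and the mean of the list was 7.40 and 7.59 in the TCQA samples, against 7.61 and 7.50 in the water samples. Calml4, a calmodulin-like protein gene, had 4.84 and 4.50 in the TCQA samples, against 6.42 and 6.15 in the water samples, a change of -1.62 (SE 0.22; adjusted p = 0.642, limma). Choroid plexus markers, read below, averaged 7.45 and 6.83 in the TCQA samples, against 8.64 and 8.09 in the water samples. The part of that tissue in the Calml4 value was not tested. Mia, for a small secreted protein, was lower by -0.47 (SE 0.19) and Vim, an intermediate filament gene also active in astrocytes and vessels, was higher by 0.85 (SE 0.27), both at an unadjusted p under 0.05.

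**Figure D4:**
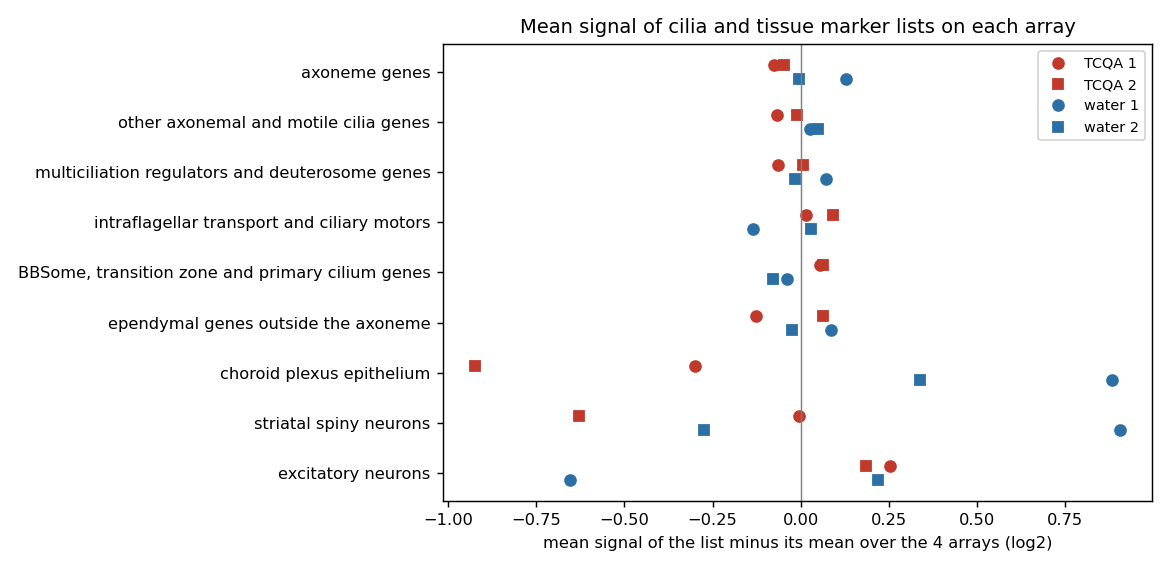
Mean log2 signal of each gene list on each array, given as the difference from the mean over the 4 arrays, TCQA in red above water in blue. The axoneme genes lie between -0.08 and 0.13, while the choroid plexus list spans -0.92 (TCQA 2) to 0.88 (water 1) and the striatal list puts water 1 at 0.91.

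Markers of other cell types and neighbouring regions also differed between the arrays. Of 14 measured choroid plexus markers 13 were lower in TCQA and 9 (64.3%) were called lower, where 3.89% of all rows were. Their median change was -0.99, and their mean signal was 7.45 and 6.83 in the TCQA samples, against 8.64 and 8.09 in the water samples. The defining marker Ttr had 15.42 and 11.46 in TCQA 1 and TCQA 2, against 17.72 and 17.27 in the water samples. Striatal spiny neuron markers averaged 12.73 and 12.11 in the TCQA samples, against 13.64 in water 1 and 12.46 in water 2. Myelinating oligodendrocyte markers averaged 11.51 and 11.44 in the TCQA samples, against 12.14 in water 1 and 11.54 in water 2, with 7 of 9 lower in TCQA, a median change of -0.40 and 9 of 9 higher in water 1 than in water 2. Astrocyte and meningeal fibroblast markers had median changes of -0.09 (10 genes) and 0.0067 (8 genes). Excitatory neuron markers averaged 13.12 and 13.05 in the TCQA samples, against 12.21 in water 1 and 13.08 in water 2. The axoneme genes averaged 5.92 and 5.95 in the TCQA samples, against 6.12 in water 1 and 5.99 in water 2, and 48 of the 73 (65.8%) were higher in water 1 than in water 2, where 50.8% of all rows were. Their median water 1 minus water 2 difference was 0.17, against 0.0073 over all rows. Water 1 was the highest array for the axoneme, choroid plexus, striatal and myelin means, while the order of the other 3 arrays was not the same in all of these lists. The part of any of these tissues in the lower axoneme genes was not tested. Without water 1 the median change of the axoneme genes was -0.03, that of the choroid plexus list -0.67, of the striatal list -0.12 and of the myelin list -0.10.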

How the data were processed

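RNA of 4 cortex samples was hybridised to Clariom S mouse arrays. The authors deposited log2 signals per transcript cluster, made by SST-RMA normalisation (Transcriptome Analysis Console 4.0.2), per the series design text, and RMA and limma are named in the submitters' processing notes. Arrays give no count depth, and their number limits the precision. The platform annotation gives 1 symbol for 19572 of 28846 rows, several for 0 and none for the rest, of which 5222 are negative control probe sets. Where a symbol had several rows the brightest stood for it, and the 73 axoneme genes had 1 row each.

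Groups came from the labels. limma 3.58.1 in R 4.3.3 fitted TCQA minus water on all named rows (lmFit, eBayes, no trend, no block, two-sided), with Benjamini-Hochberg adjustment over 19572, and was tested on simulated data. Printed SEs use the moderated variance, with 4.43 prior degrees of freedom beside 2 residual ones. A median SE of 0.22 puts an unadjusted p of 0.05 at a log2 change of 0.52. In results "called" means an unadjusted p under 0.05. The members, gene lists and naming rule (the regulators, every member with an unadjusted p under 0.05, the 4 brightest per role, and up to 3 genes of smallest p per other list) were chosen with earlier results of these data known, and the promoter motifs were picked after their matches were seen. Members named outside that rule were picked with their values in view. Tried as alternatives were other variance priors, quantile normalisation, median centring, a dim-signal filter, averaged rows per symbol, leaving out each array and a replicate block. No genome build for the array files is stated in the sources used here.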

Additional observations from a re-analysis of the deposited data

How the results depend on the processing

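Of the 40 axoneme genes named by rule, 39 kept direction and side of the unadjusted threshold with an intensity trend, 39 with median centring, 40 with rows of a symbol averaged, 37 with the variance prior over every probe set, 36 with a replicate block, 35 with quantile normalisation and 33 without the moderated variance. The main fit called 10 axoneme genes. Without the moderated variance 5 were called lower and 0 higher, of which 4 were among the 9 called lower in the main fit and the other was Rfx3. When only rows above the negative control median were fitted, where 21 axoneme genes remain, 3 were called (2 lower, Cfap44 and Drc1). The count called higher was 0 with the prior over every probe set. The 4 past the study's criteria became 2 without the moderated variance (Cfap53 and Cfap65), 2 with quantile normalisation (Cfap65 and Tekt1) and 0 above the negative control median, where the 4 were left out by construction. Over all rows, 130 past the criteria became 55 without the moderated variance and 44 of 902 called rows above that median. The median change of the axoneme genes was 0.066 there. Quantile normalisation gave a median of -0.02 and ended the calls of Cfap126, Cfap221, Hydin and Ccdc151. Median centring moved Tekt2 to -0.015.

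Leaving out 1 array gave 7 to 16 called axoneme genes (5 to 13 lower, 0 to 3 higher), 3 to 5 past the study's criteria, 218 to 428 rows past them in all, 1011 to 1735 called rows, 0 to 2 with an adjusted p under 0.05 in limma and a median change from -0.24 (without water 2) to -0.033 (without water 1). Signs turned in some of these fits for genes that were not called with all arrays, with ranges of -0.29 to 0.15 for Cfap20, -0.16 to 0.31 for Cfap300, -0.26 to 0.60 for Cfap36, -0.25 to 0.50 for Dnaaf2, -0.84 to 1.21 for Dnah11, -0.26 to 0.43 for Dnah2, -0.16 to 0.62 for Drc3, -0.37 to 0.067 for Mcidas, -0.026 to 0.27 for Rfx2, -0.28 to 0.083 for Rsph9, -0.33 to 0.46 for Spag6 and -0.31 to 0.31 for Tekt2. The cause of these shifts was not tested, and each of these fits also had fewer samples. Replicate numbers do not pair the samples by the labels, and same-numbered samples did not deviate together (r = -0.0032 across 19572 rows). The fit with the replicate block called 9 axoneme genes lower, 7 of them shared with the fit without it, and 3 higher, with 3 lower ones past the study's criteria. With 2 arrays a group, a row of median SE needed a log2 change of 0.52 for an unadjusted p of 0.05 in limma. Changes below that size could mostly not be called. No such limit was worked out for dim rows alone, although most axoneme signals lay under the negative control median.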
